A study of Mus musculus with 3 samples.

Results

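The nuclear genes for the mitochondrial respiratory chain and ATP synthase were followed through fusion of the mouse palate. Members were chosen by symbol: genes named Nduf, Sdha to Sdhd, Uqcr, Cox4 to Cox8 or Atp5, with Cyc1 and Cycs, wherever a probe set names that gene alone. This gave 75 of the 8251 genes on the array with such a probe set. By role, 29 encode subunits of complex I, 4 of complex II, 8 of complex III, 14 of complex IV and 14 of complex V, the ATP synthase. The other 6 are the assembly factors Ndufaf1, Ndufaf4, Sdhaf1 and Sdhaf2, the supercomplex factor Cox7a2l, and Cycs.

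RNA came from the medial edge epithelium of the palate, the cell layer over the tips of the shelves, in CF-1 mouse embryos at ED13.5, that is, in mid-gestation before the palate closes. There were 3 arrays, 1 per time. The 0 h array held unfused epithelium, for which the labels name no culture. At 12 h the epithelium had fused, the shelves having been kept touching in culture, and at 24 h it was fused and described as turning into mesenchyme. All 3 samples were freed with the enzyme Dispase II and their RNA was amplified, and how many embryos went into each was not given in the sources used here. With 1 array per time there was no test, SD or replicate check for any value, and fusion cannot be told apart from time in culture.

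The respiratory chain passes electrons from NADH (complex I) and succinate (complex II) through complex III and the mobile carrier cytochrome c to oxygen at complex IV. Complexes I, III and IV pump protons out of the matrix, and ATP synthase lets them back to make ATP. Each complex needs its subunits in fixed ratios, and some core subunits of complexes I, III, IV and V are encoded in mitochondrial DNA, outside the symbols used here. The promoters of the nuclear genes are known for sites of the factors NRF1, GABP (an ETS factor) and YY1.

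Promoter sequence was available from RefSeq (GRCm38.p6) for 61 of the 75 members, as a window of 250 bases before the start of the gene and 50 after it. Not matched were Atp5a1, Atp5mpl, Cox4i1, Cox6a2, Cox6c, Cox8c, Cyc1, Ndufa2, Ndufb9, Ndufs1, Sdhc, Uqcrb, Uqcrc2 and Uqcrq. Searched on both strands, the NRF1 motif GCATGCGC stood in the window of 11 members, which is 18% of the 61, against 5.30% of 6572 genes on the array. The ETS motif CCGGAAG stood in 18 (29.5%, against 17.1%) and the YY1 motif AAGATGGCG in 5 (8.20%, against 2.97%). Of all 27025 promoters in the table, 3.05% held the NRF1 motif, 9.93% the ETS motif and 1.64% the YY1 motif. Both the NRF1 and the ETS motif were found in 5 members (8.20%), against 1.23% of the genes on the array. Those 5 belong to 4 different complexes, and their promoters are shown because each carries both motifs. Capitals mark the motifs. CTTCCGG is the ETS motif on the other strand, and GCGCATGCGC holds the NRF1 motif on each strand, the matches overlapping.
Atp5l, chr9:44920938-44920992, minus strand: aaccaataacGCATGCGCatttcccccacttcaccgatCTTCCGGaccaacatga
Atp5k, chr5:108434371-108434459, minus strand: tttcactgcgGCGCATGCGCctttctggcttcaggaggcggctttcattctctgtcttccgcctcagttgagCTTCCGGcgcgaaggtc
Uqcr11, chr10:80406808-80406897, minus strand: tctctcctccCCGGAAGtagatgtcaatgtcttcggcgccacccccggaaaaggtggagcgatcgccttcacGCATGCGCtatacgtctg
Sdhb, chr4:140961207-140961293, plus strand: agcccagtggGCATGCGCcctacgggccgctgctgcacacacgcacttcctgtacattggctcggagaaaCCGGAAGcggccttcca
Cox6a1, chr5:115348958-115349130, minus strand: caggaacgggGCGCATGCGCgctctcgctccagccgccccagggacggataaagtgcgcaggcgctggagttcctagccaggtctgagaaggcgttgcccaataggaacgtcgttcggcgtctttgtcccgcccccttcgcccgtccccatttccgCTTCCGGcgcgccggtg
A match is a run of letters and does not show that a factor binds there.

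Signals are Affymetrix intensities scaled to a common trimmed mean, so each value can be set against the same probe set on another array but not against another gene. Sums over genes, given below, weigh the brightest probe sets most and are sums of signal, not amounts of RNA. Below a floor of 13.53 a signal has no order. A gene at the floor on 1 of 2 arrays has only a bound, written as at least so many fold, and a gene at the floor on both has no ratio. Ratios are on the log2 scale, the later array over the earlier. Of the members, 63 were above the floor on all 3 arrays (84.0%, against 56.7% of all genes) and 7 on some. The other 5 were at the floor throughout: Ndufa12 and Ndufs4 of complex I, and Cox5a, Cox7a1 and Cox8a of complex IV.

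The only gauge of error is the disagreement between probe sets of the same gene. Around the mean of their gene, the log2 ratios of such sets had an SD of 1.24 in the 12 h over 0 h comparison (672 genes), 0.82 in 24 h over 12 h (687 genes) and 1.07 in 24 h over 0 h (748 genes). A single ratio of 2-fold therefore lies within this spread for 12 h over 0 h and 24 h over 0 h. Counts below use a rule of size, at least 2-fold. Control probe sets along Gapdh gave 3' to 5' ratios of 0.828, 14.9 and 12.6 on the 0, 12 and 24 h arrays, and those along Actb gave 1.02, 11.9 and 2.97. The dimmer controls gave 1.57, 4.70 and 5.57 (transferrin receptor) and 4.41, 2.63 and 0.626 (pyruvate carboxylase). These rest on weak signals, so their order is unsure. At 24 h the deposited 3' and 5' intensities were 12.8 and 2.3 for transferrin receptor and 10.9 and 17.4 for pyruvate carboxylase. The part of these 3' to 5' differences in the results was not tested. Of 13 epithelial markers, Krt5, Krt14 and Krt15 were at the floor on all 3 arrays, while Krt8, Krt17, Krt18, Cdh1, Epcam, Trp63, Dsp and Perp were above it on each. The summed signal of 6 erythroid markers was 6476, 1579 and 1512 at 0, 12 and 24 h, and that of 12 markers of palate mesenchyme was 4413, 6739 and 7984. The sum was 1243, 2307 and 2012 for the 13 epithelial markers. It was 163, 599 and 415 for 7 macrophage markers, and 164, 437 and 334 for 5 endothelial markers. The mesenchymal markers went both ways at 12 h relative to 0 h. At least 2-fold lower were 6 (against 27.3% of all genes), among them Prrx2, Msx1 and Mfap2. Higher were 4 (against 17.7% of all genes), Twist1, Col1a1, Col1a2 and Col3a1. In such bulk RNA, fewer cells of a type and less RNA per cell cannot be told apart, and the part of any of these lists in the results was not tested.

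Respiratory chain and ATP synthase genes were lower at 12 h than at 0 h more often than genes in general, and remained so at 24 h. At 12 h, 28 of the 70 members with a ratio were at least 2-fold lower than at 0 h (against 27.3% of all genes) and 10 were at least 2-fold higher (14.3%, against 17.7%). The median log2 ratio was -0.61 for the members and -0.21 for all 6379 genes with a ratio. At 24 h relative to 0 h, 29 of 70 were lower (41.4%, against 17.7%) and 6 higher (8.57%, against 14.5%), with a median of -0.68 against -0.08. Between the cultured arrays, 24 h over 12 h, 13 of 67 were lower (19.4%, against 12.0%) and 8 higher (11.9%, against 18.8%), with a median of -0.24 against 0.17. The 12 h and 24 h comparisons with 0 h share the 0 h array. Values for the medians include bounds at their bound.

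The sum of the members' signals did not follow their median. It was 28090, 31582 and 19276 at 0, 12 and 24 h, which was 3.27%, 3.17% and 2.05% of the summed signal of all genes. The median member signal was 291, 104 and 105 at the same times. At 12 h, Atp5md, Ndufa5, Uqcrb and Cox6c were each over 3-fold above their 0 h signal and added to the sum, while 28 members were at least 2-fold lower. The sets that read Atp5md, Ndufa5, Uqcrb and Cox6c may also bind related transcripts (f and s sets, described with the plot by kind of probe set). The 5 brightest members of each array made up 23.2%, 46.4% and 39.0% of the sum at 0, 12 and 24 h.

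Across the 3 arrays the commonest course was a lower signal at 12 h with little further difference. Of 70 members, 22 were at least 2-fold lower at 12 h and then within 2-fold between 12 h and 24 h (31.4%, against 14.6% of all genes). A gene at the floor on both cultured arrays, such as Uqcr11, counts as within 2-fold between them. They include Atp5l, Atp5e and Atp5mpl of ATP synthase, Cyc1 and Uqcr11 of complex III, and Sdhb of complex II. Both steps stayed within 2-fold in 23 members (32.9%, against 46.4%). Lower at 12 h and higher again at 24 h were Ndufb8, Ndufv1, Sdhc, Uqcrc1 and Atp5d (7.14%, against 11.6%). The opposite course, higher at 12 h and lower again at 24 h, was that of Atp5c1, Atp5j, Atp5md, Cox6c, Cycs and Ndufa5 (8.57%, against 6.38%). Uqcrh alone was at least 2-fold lower at each step, and no member was higher at each. Among the 63 members above the floor on all arrays, the 0 h array held the highest signal in 38 (60.3%, against 39.2%) and the 24 h array the lowest in 31 (49.2%, against 24.5%).

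**Figure D1:**
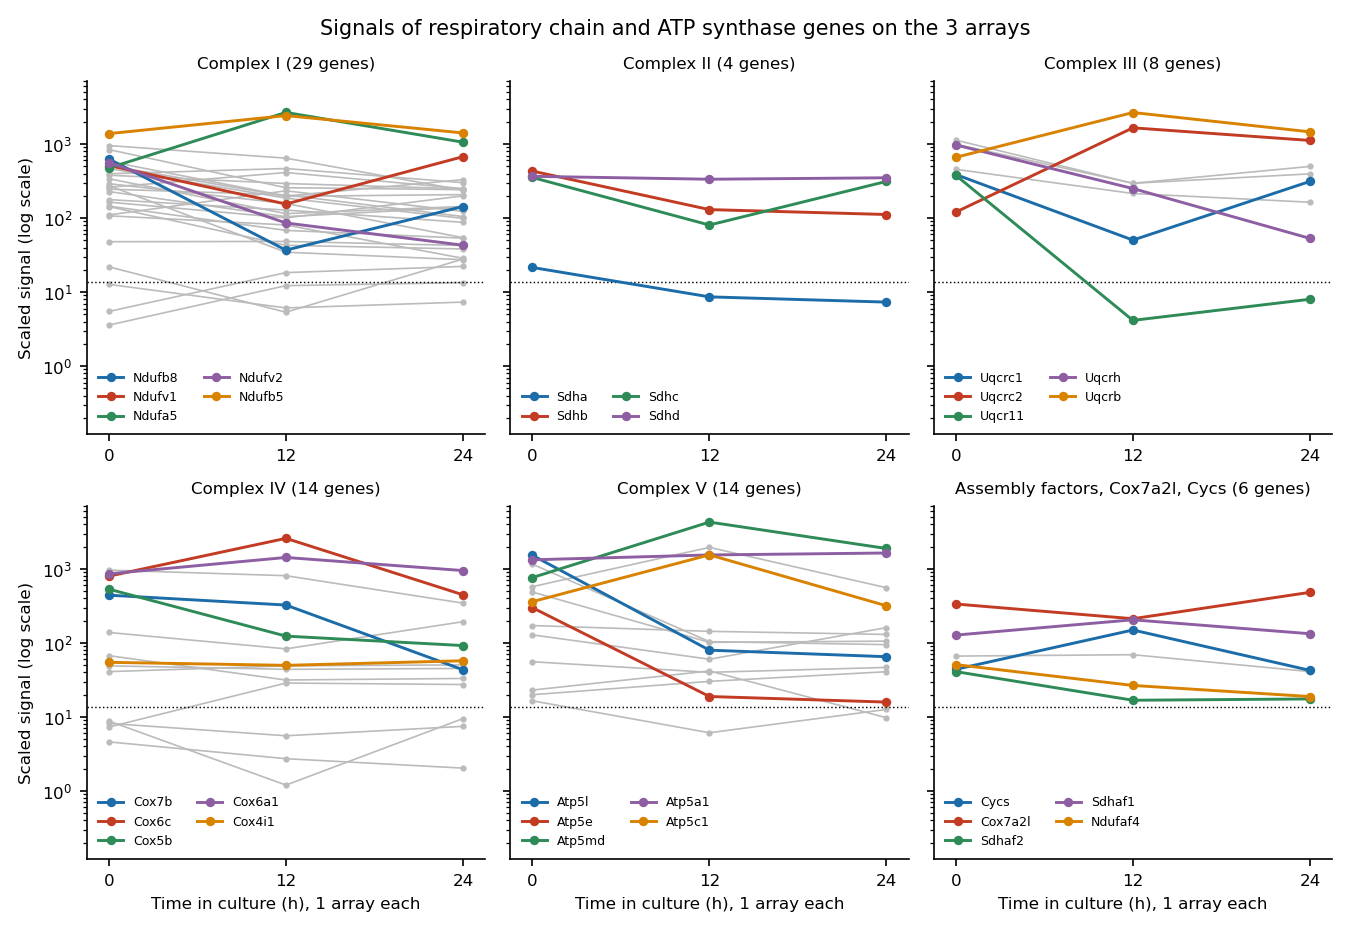
Scaled signal (log scale) of every member on the arrays at 0, 12 and 24 h, in 1 panel per complex, with named members in colour, the others in grey and the floor of 13.53 as a dotted line. Signals of most complex I genes lie lower at 12 h than at 0 h, while Ndufa5, Uqcrc2, Uqcrb, Cox6c and Atp5md lie highest at 12 h.

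Complex I, the NADH dehydrogenase, had the largest number of genes lower than at 0 h on each cultured array. It also has the most members, 29, so this number does not rank the complexes by share. At 24 h relative to 0 h, 14 of its 27 genes with a ratio were at least 2-fold lower (51.9%, against 17.7% of all genes) and 1 higher, with a median log2 ratio of -1.02. For 12 h over 0 h, 12 were lower (44.4%, against 27.3%) and 2 higher, with a median of -0.71. Between 24 h and 12 h, 4 were lower (14.8%, near the 12.0% of all genes) and 3 higher, with a median of -0.34.

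Of the 4 catalytic core subunits measured, 3 were at least 2-fold lower at 12 h than at 0 h (against 27.3% of all genes). Ndufv2, an iron-sulfur subunit of the NADH-oxidising tip, had signals of 561, 85.8 and 43.0 at 0, 12 and 24 h. It was 6.54-fold lower at 12 h and 13.1-fold lower at 24 h than at 0 h. Its second probe set gave 46.5, 47.1 and 59.5, so the sets of this gene disagree by a log2 ratio of 4.06 for 24 h over 0 h. Ndufv1, which binds FMN and takes the electrons from NADH, had 513, 155 and 675. At 12 h it was 3.31-fold lower than at 0 h, and at 24 h 4.36-fold higher than at 12 h, so only the 12 h array was low. Ndufs3, of the arm that leads to ubiquinone, had 228, 104 and 140. Ndufs1, the largest iron-sulfur subunit of the complex, had 178, 128 and 87.6 and was 2.03-fold lower at 24 h than at 0 h.

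Accessory subunits surround that core and are needed for its assembly and stability. At 24 h, 12 of 23 were at least 2-fold lower than at 0 h (against 17.7% of all genes) and 1 was higher (against 14.5%). Ndufb8, a membrane-arm subunit widely used as a marker of assembled complex I, had signals of 628, 36.9 and 143, and was 17-fold lower at 12 h than at 0 h. Ndufb10, also of the membrane arm, had 274, 34.6 and 27.4, a log2 ratio of -3.32 for 24 h over 0 h. Low signals on both cultured arrays were also those of Ndufa7 (841, 257 and 242), Ndufb6 (514, 196 and 207), Ndufc1 (339, 115 and 144), Ndufa13 (145, 68.2 and 53.6) and Ndufv3 (143, 42.9 and 38.2). Ndufb7 had 583, 199 and 331, and Ndufa3 466, 186 and 99.1. The second probe set of Ndufa3 gave 17.6, 36.3 and 17.5, with no lower value at 24 h.

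A later drop, with 12 h within 2-fold of 0 h, was seen on the brightest probe set of 3 accessory subunits. Ndufab1, the mitochondrial acyl carrier protein, had signals of 291, 157 and 54.4 and was 5.36-fold lower at 24 h than at 0 h. Ndufa6, which binds that carrier protein, had 107, 80.7 and 28.6 and was 3.75-fold lower. Ndufb2 had 955, 645 and 238 and was 4.01-fold lower. Another set of Ndufb2 gave 827, 101 and 124, already 8.16-fold lower at 12 h, so its sets disagree on the timing. A set that names Ndufab1 together with Ndufab1-ps, left out of the counts, gave 215, 827 and 773, higher on both cultured arrays. Ndufb9, of the same protein family as Ndufa6, had 246, 206 and 105 and was 2.35-fold lower at 24 h than at 0 h, without a 2-fold step between neighbouring times.

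Higher signals at 12 h in complex I were few. Ndufa5 had 476, 2674 and 1060, which was 5.62-fold higher at 12 h and 2.23-fold higher at 24 h than at 0 h. Ndufb3 had 110, 234 and 123, high on the 12 h array alone. Ndufb5 had 1384, 2425 and 1413, less than 2-fold apart. Within 2-fold in every comparison were also Ndufa2, Ndufa8, Ndufa9, Ndufa10 and Ndufb11. Ndufa1 had 21.9 at 0 h, the floor at 12 h and 27.9 at 24 h, and at 24 h was at least 2.06-fold higher than on the 12 h array. Ndufc2 lay on the floor at 0 h and had 18.3 and 22.2 at 12 and 24 h.

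Complex II, the succinate dehydrogenase shared with the citrate cycle, has 4 subunits and all were measured. Their median log2 ratio was -1.20 for 12 h over 0 h and -0.42 for 24 h over 0 h, but they did not move together. Sdhb, its iron-sulfur subunit, had signals of 431, 130 and 112 at 0, 12 and 24 h and was 3.31-fold lower at 12 h and 3.86-fold lower at 24 h than at 0 h. Sdhc, a membrane anchor, had 353, 80.5 and 313, so it was 4.39-fold lower at 12 h than at 0 h and back near its 0 h signal at 24 h. The partner anchor Sdhd had 366, 335 and 350, the same within 1.09-fold. Sdha, the flavoprotein that oxidises succinate, had 21.5 at 0 h and lay on the floor at 12 and 24 h, at least 1.59-fold lower.

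Complex III, which hands electrons to cytochrome c, had no gene within 2-fold between 12 h and 0 h. Of its 8 genes, 6 were at least 2-fold lower at 12 h (against 27.3% of all genes) and 2 were higher, and the median log2 ratio was -1.85, the lowest of the complexes. Relative to 0 h, 4 were lower (against 17.7% of all genes) and 2 higher at 24 h, with a median of -1.24. Between 24 h and 12 h, 1 of 7 was lower (against 12.0%) and 1 higher (against 18.8%), with a median of -0.39.

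The genes for the paired core proteins of complex III went opposite ways at 12 h relative to 0 h, each on 1 probe set. The set of Uqcrc2 is an f set, which may also bind related transcripts, and that of Uqcrc1 is not marked so. Uqcrc1 had signals of 387, 50.4 and 312 at 0, 12 and 24 h and was 7.68-fold lower at 12 h than at 0 h. Uqcrc2 had 121, 1657 and 1119 and was 13.7-fold higher at 12 h and 9.27-fold higher at 24 h than at 0 h, the largest measured rise of any member. Cyc1, the cytochrome c1 that passes the electron on, had 1130, 295 and 395, and was 3.83-fold lower at 12 h than at 0 h. Its second probe set gave 323, 243 and 408, within 2-fold on all arrays.

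Among the small subunits of complex III, Uqcr11 had a signal of 377 at 0 h and lay on the floor at 12 and 24 h, at least 27.9-fold lower. Uqcrh, the hinge protein that helps cytochrome c1 meet cytochrome c, had 972, 251 and 53.1 and was 18.3-fold lower at 24 h than at 0 h. Each later array was lower for this gene. Uqcrq had 994, 295 and 498 and Uqcr10 455, 215 and 164, both low at 12 h. Uqcrb had 663, 2667 and 1462, and was 4.03-fold higher at 12 h than at 0 h. Uqcrc2 and Uqcrb, the high pair, are both read by probe sets that may also bind related transcripts (f sets, described with the plot by kind of probe set).

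Complex IV, the cytochrome c oxidase, lay near the genes in general for 12 h over 0 h. In both comparisons of the 24 h array its share of lower genes was above that of all genes. For 12 h over 0 h, 2 of its 11 genes with a ratio were lower and 2 higher (18.2% each way, against 27.3% and 17.7% of all genes), with a median log2 ratio of -0.16. Between 24 h and 12 h 3 were lower (27.3%, against 12.0%) and 1 higher (median -0.07), and for 24 h over 0 h 4 were lower (36.4%, against 17.7%) and 1 higher (median -0.12). Cox5b had signals of 532, 123 and 92.1 at 0, 12 and 24 h and was 4.31-fold lower at 12 h and 5.78-fold lower at 24 h than at 0 h. Cox7b had 441, 325 and 43.4, low on the 24 h array alone, where it was 7.49-fold lower than at 12 h. Cox6c had 798, 2586 and 447, and at 12 h was 3.24-fold higher than at 0 h, while at 24 h it was 5.78-fold lower than at 12 h. The other probe sets of Cox6c were at the floor on all arrays. Cox5b, Cox7b and Cox6c are small subunits around the core that mitochondrial DNA encodes.

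Several complex IV subunits come as general and tissue-restricted forms. Cox6a1, the general form, had 858, 1427 and 949, while Cox6a2, the form of heart and skeletal muscle, was at the floor at 0 h and had 28.7 and 27.4 at 12 and 24 h, at least 2.12-fold and 2.02-fold higher than at 0 h. Cox6b1, the general form, had 49.0, 44.0 and 45.1, and Cox6b2, known from testis, had 67.2, 31.5 and 33.1. Cox7a2, the general form, had 963, 809 and 345 and was 2.79-fold lower at 24 h than at 0 h, and its muscle counterpart Cox7a1 was at the floor. Of the Cox8 forms, the general Cox8a was at the floor. Cox8b, of heart and muscle, had 40.9, 49.0 and 50.4 on a set for which design rules were dropped. Cox8c, known from testis, had 138, 83.1 and 193 on one set. The other set of each of these genes was at the floor on all 3 arrays. The general form was thus at the floor in the Cox8 family alone, and a signal near the floor does not show which form is present. Cox4i1 had 54.6, 49.7 and 57.3, alike on all arrays.

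The summed signal of 12 striated muscle markers was 750, 1024 and 822 at 0, 12 and 24 h, with Tnnt1 alone at 95.2, 585 and 404. Of the 10 with a ratio for 12 h over 0 h, 3 were at least 2-fold higher (against 17.7% of all genes) and 3 lower (against 27.3%). The list's part in the signal of Cox6a2 was not tested.

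ATP synthase, complex V, held genes with ratios over 10-fold lower beside genes over 4-fold higher. For 12 h over 0 h, 5 of 14 genes were lower (35.7%, against 27.3% of all genes) and 3 higher (21.4%, against 17.7%), with a median log2 ratio of -0.27. Between 24 h and 12 h 4 of 13 were lower (30.8%, against 12.0%) and 1 higher (median -0.14), and for 24 h over 0 h 4 of 14 were lower (28.6%, against 17.7%) and 2 higher (median -0.27).

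In the F1 head and stalk, where ATP is made, Atp5a1, the alpha subunit, had signals of 1326, 1543 and 1639 at 0, 12 and 24 h and was within 1.24-fold throughout. Atp5c1, the rotating gamma subunit, had 361, 1548 and 317, high on the 12 h array alone, where it was 4.29-fold higher than at 0 h. Its second probe set gave 518, 721 and 559, less than 2-fold apart. Atp5e, the epsilon subunit at the foot of the stalk, had 299, 18.9 and 15.9, and was 15.8-fold lower at 12 h than at 0 h. Its probe set is marked as incomplete, with fewer probe pairs than usual. Atp5d, the delta subunit beside it, had 128, 60.2 and 161, and all 4 of its measured sets were lower at 12 h than at 0 h.

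In the membrane part and the stator that holds the head, Atp5l, subunit g, had 1526, 79.7 and 65.1. It was 19.1-fold lower at 12 h and 23.5-fold lower at 24 h than at 0 h, the largest measured drop of any member. Its second probe set was at the floor on all arrays. Atp5mpl, a small proteolipid of the complex, had 1157, 104 and 94.8 and was 11.1-fold lower at 12 h than at 0 h. Atp5o, which joins the stator to the head, had 486, 102 and 106 and was 4.78-fold lower. These 3 were low on both cultured arrays. Atp5md, a small subunit linked to pairing of the enzyme into dimers, had 764, 4288 and 1886 and was 5.62-fold higher at 12 h and 2.47-fold higher at 24 h than at 0 h. Atp5j, the coupling factor of the stator, had 576, 1953 and 556, high at 12 h alone.

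The ring of subunit c, which turns as protons pass, is encoded by several genes for the same mature protein. Atp5g1 had 19.9, 30.2 and 40.8 and was 2.05-fold higher on the 24 h than on the 0 h array, and Atp5g2 had 172, 143 and 130. Atp5pb, the stator subunit b, had 55.65, 40.03 and 46.64. Atp5k, subunit e, had 23.1 and 41.8 at 0 and 12 h and the floor at 24 h, at least 3.09-fold lower at 24 h than at 12 h. Atp5j2, subunit f, had 16.5 at 0 h and lay on the floor at 12 and 24 h.

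Cycs, the cytochrome c that shuttles between complexes III and IV, had signals of 44.0, 149 and 42.6. At 12 h it was 3.40-fold higher than at 0 h, and at 24 h 3.51-fold lower than at 12 h, a course like that of Atp5c1 and Atp5j. Cox7a2l, which joins complexes III and IV into supercomplexes, had 335, 212 and 482. Of the assembly factors in the symbol rule, Sdhaf2, which helps Sdha take up its flavin, had 40.9, 16.8 and 17.5, and Ndufaf4 had 50.9, 26.6 and 18.8. Ndufaf1 had 66.3, 69.3 and 40.9, and Sdhaf1 had 128, 205 and 133, both within 2-fold.

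**Figure D2:**
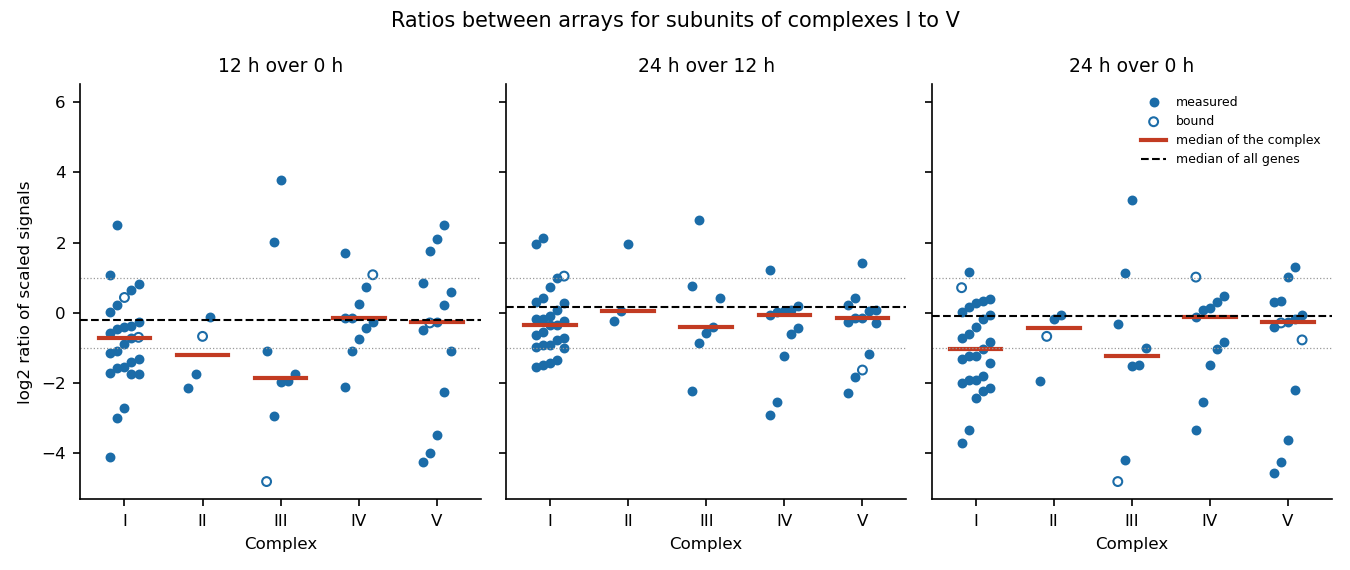
The log2 ratio of scaled signals for each subunit, by complex, in a panel each for 12 h over 0 h, then 24 h over 12 h, then 24 h over 0 h, with bounds as open circles, the median of each complex in red and that of all genes dashed. Medians of complexes I and III lie below that of all genes for 12 h over 0 h (-0.71 and -1.85, against -0.21) and for 24 h over 0 h (-1.02 and -1.24, against -0.08).

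Set beside the median of all genes, the log2 medians for 12 h over 0 h differed by -0.49 for complex I, -0.99 for complex II, -1.63 for complex III, 0.06 for complex IV and -0.06 for complex V. At 24 h relative to 0 h the differences were -0.94 for complex I, -0.34 for complex II, -1.16 for complex III, -0.04 for complex IV and -0.19 for complex V. In the 8 alternatives run for each, complexes I, II and III stayed below 0 for both comparisons, and complexes IV and V did so for 24 h over 0 h. Complex IV ran, for 12 h over 0 h, between -0.13 and 0.13 and complex V between -0.20 and 0.11. Within each complex the genes differed more than these medians did: from -4.80 to 3.78 in complex III, and from -4.26 to 2.49 in complex V, for 12 h over 0 h. Over the 64 members measured at both times the SD of the log2 ratio was 1.64, against 1.36 over 4904 genes, and for 24 h over 0 h it was 1.48, against 1.09.

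Genes for large and for small proteins were lower alike at 12 h. Transcript lengths were not available, so members were classed from textbook subunit sizes, 16 as large (such as Ndufs1, Sdha, Uqcrc1 and Atp5a1) and 58 as small, with Ndufv3 left out because its forms differ in size. For 12 h over 0 h, 7 of 16 large and 20 of 53 small ones were at least 2-fold lower, against 27.3% of all genes, with a median log2 ratio of -0.57 in both classes. Between 24 h and 12 h the median was -0.18 for large and -0.29 for small ones. At 24 h relative to 0 h, 5 of 16 large and 23 of 53 small ones were lower, against 17.7% of all genes, with medians of -0.53 and -0.77. Inside complex I the medians for 24 h over 0 h were -0.55 for 6 large and -1.24 for 20 small ones.

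The sign of the difference between the classes was not settled. Large minus small ran from -0.20 to 0.24 for 12 h over 0 h and from -0.043 to 0.56 for 24 h over 0 h over the alternatives. The gene span on the chromosome, an alternative chosen after seeing the data, gave medians for 24 h over 0 h of -0.35 for members over the members' median span and -0.92 for the rest. Among all genes split at the same span these were -0.06 and -0.14. The small proteins with a large drop (Atp5l, Atp5e, Atp5mpl and Uqcr11) stand beside small ones with a large gain (Atp5md, Ndufa5 and Uqcrb).

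**Figure D3:**
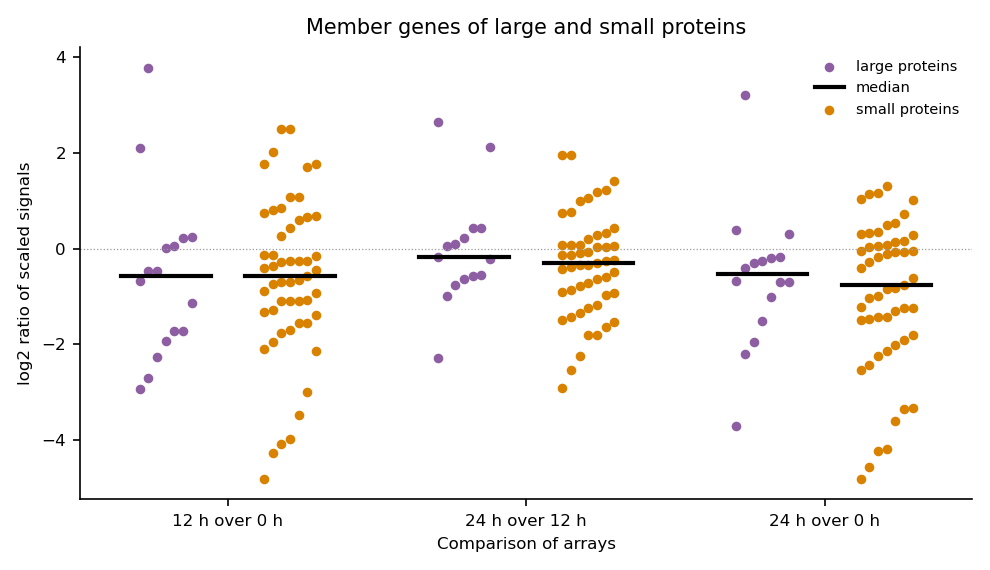
The log2 ratio of scaled signals for members that encode large proteins (left, purple) and small proteins (right, orange) in each comparison of arrays, bounds included, with the median as a black line. The medians of both classes lie at -0.57 for 12 h over 0 h, and the small class lies lower than the large one for 24 h over 0 h, at -0.77 against -0.53.

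The higher ratios went with the kind of probe set. On this array a letter before the end of a probe set's name marks a compromise in its design. The letters f, s and g mark sets that may also bind related transcripts, f being that of a sequence family, while i marks an incomplete set and r a set for which design rules were dropped. The 5 members with the largest measured rises for 12 h over 0 h, Uqcrc2, Atp5md, Ndufa5, Atp5c1 and Uqcrb, were all read by lettered sets. Of the 13 members with a ratio read by f sets, 4 had at 12 h a signal at least 2-fold above that at 0 h and 3 were lower, with a median log2 ratio of 0.69. Of the 51 whose set has no letter, 4 were higher and 23 lower, with a median of -0.73. The same held for the array as a whole, where the median was 0.39 for f sets and -0.26 for sets with no letter. At 24 h relative to 0 h the members' medians were 0.06 for f sets and -0.82 for sets with no letter.

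Sets of the same member gave no single direction for 12 h over 0 h. Ndufb2 was read by an f set with signals of 955, 645 and 238 at 0, 12 and 24 h, and by an r set with 827, 101 and 124, its other r sets lying at the floor throughout. For 12 h over 0 h the f set gave -0.57 and the r set -3.03. Ndufv2, whose signals are given with complex I, had 0.02 on its f set and -2.71 on its set with no letter. The f set was the lower one in Atp5d, Atp5g2 and Cox4i1. With the sets that name a member and another gene, 7 names had measured f and other sets. The f set was higher in 4 and lower in 3, with a median difference of 2.14. Cox7c (named with Gm12338) had 1.59 on its f set and -1.84 on its r set, and Ndufs6 (named with Ndufs6b) had 1.26 and -0.89. For 24 h over 0 h the f set was higher in 6 and lower in 1, with a median difference of 0.74.

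Over all 237 gene names with measured f and other sets, the f set gave the higher ratio for 12 h over 0 h in 177 and the lower in 60, with a median difference of 0.93. Between 24 h and 12 h it was higher in 87 of 252, with a median difference of -0.31. For Uqcrc2, Uqcrb, Atp5md, Cox6c, Ndufa5 and Atp5c1 the names of the sets mark possible binding of related transcripts, a limit to their ratios at 12 h. The sets read for Atp5l, Ndufb8 and Uqcrc1 carry no such mark, which does not show that such binding is absent. Its part was not tested for any of them.

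**Figure D4:**
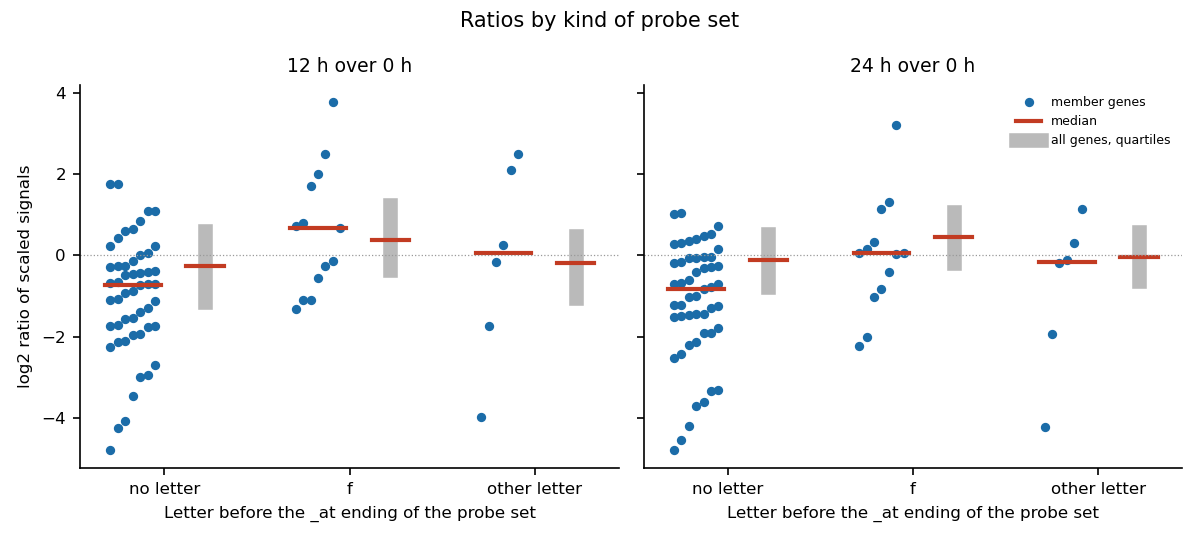
The log2 ratio of scaled signals for members (points, with the median in red, bounds included) beside the quartiles and median of all genes (grey bar), by the letter in the probe set's name, for 12 h over 0 h and 24 h over 0 h. Members read by f sets have a median of 0.69 for 12 h over 0 h and those with no letter -0.73, and all genes differ by kind in the same direction.

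Only 8 members had several measured probe sets, 18 sets in all, which varied with an SD of 1.17 for 12 h over 0 h. In 6 of the 8 the sets differed by at least 2-fold, and in 3 they had opposite signs: Ndufa3, Ndufv2 and Cox4i1. Among all 672 genes with several measured sets for this comparison, 369 differed by at least 2-fold and 294 had opposite signs. Atp5g2 and Cox4i1 agreed best, within a log2 ratio of 0.26 in every comparison. For Atp5d the sets ranged from -1.92 to -0.22 for 12 h over 0 h. Those of Cyc1 ranged from -1.51 to 0.34 for 24 h over 0 h.

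The genes with both promoter motifs did not share a course. Atp5l, Uqcr11 and Sdhb were at least 2-fold lower at 12 h and 24 h than at 0 h, while Cox6a1 stayed within 2-fold and Atp5k was at the floor at 24 h. Members with any of the 3 motifs had a median log2 ratio for 12 h over 0 h of -0.56 (26 genes), and those with none -0.68 (30 genes). At 24 h relative to 0 h the medians were -0.70 and -0.85. Both kinds of member were lower, by similar medians.

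Other lists give a setting for these values. Of all genes, 27.3% were at least 2-fold lower and 17.7% higher at 12 h than at 0 h. At 24 h relative to 0 h, 17.7% of all genes were lower and 14.5% higher. Of mitochondrial ribosomal proteins, which translate the subunits encoded in the organelle, 22 of 59 were at least 2-fold lower and 5 higher at 12 h than at 0 h (median -0.54), and 25 of 59 lower and 2 higher at 24 h (median -0.71). Mrpl12 had signals of 160, 15.6 and 46.9 at 0, 12 and 24 h, Mrpl34 had 181, 17.5 and 53.0, and Mrps21 had 242, 75.9 and 22.4. Genes with Rpl or Rps symbols, nearly all cytosolic ribosomal proteins but including the S6 kinase Rps6kb2, had 9 of 26 lower and 1 higher at 12 h (median -0.50), and 10 of 29 lower and 1 higher at 24 h relative to 0 h (median -0.42). Rps19 had 3395, 1250 and 463, and Rps18 had 4553, 5684 and 799. Rps4l had 105, 25.7 and 16.5.

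Enzymes of the citrate cycle, which feed NADH to complex I, had 6 of 15 lower and 2 higher at 12 h than at 0 h (median -0.66), and 4 lower and 2 higher at 24 h (median -0.37). Ogdh, of the oxoglutarate dehydrogenase complex, had 135, 31.3 and 82.0. Sucla2, of succinyl-CoA synthetase, had 80.4, 812 and 1040, and Dlat, of pyruvate dehydrogenase, had 19.7, 148 and 96.7. Enzymes of the cycle thus differed in direction at 12 h.

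A list of carriers and channels of the mitochondrial membranes, with the ATP synthase inhibitor Atpif1 and the creatine kinase Ckmt1, had 4 of 12 lower and 3 higher at 12 h than at 0 h (median -0.28), and 2 of 13 each way at 24 h (median 0.34). Slc25a5, which exchanges ADP for the ATP made by complex V, had 295, 24.1 and 29.3 and was 12.2-fold lower at 12 h than at 0 h. Vdac2, a pore of the outer membrane, had 77.2, 496 and 230, and Slc25a1, the citrate carrier, had 173, 140 and 402. Import factors had 9 of 21 lower and 5 higher at 12 h (median -0.40), and 4 lower and 2 higher at 24 h (median -0.37). Hspa9, the chaperone that pulls precursors in, had 255, 1881 and 3152, whereas the small chaperones Timm13 and Timm8b had 493, 86.0 and 263, and 159, 49.1 and 28.7.

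Assembly factors outside the symbol rule had 3 of 10 lower and 2 higher at 12 h than at 0 h (median -0.02), and 2 each way at 24 h (median 0.07). These shares lie near those of all genes. Cox17, which carries copper to complex IV, had 151, 961 and 477. Phb2, a prohibitin of the inner membrane, had 160, 31.1 and 65.6, and Foxred1, an assembly factor of complex I, had 107, 20.7 and 63.6. Regulators of mitochondrial biogenesis had 5 of 12 higher and 3 lower at 12 h (median 0.30), and 3 higher and 2 lower at 24 h (median -0.15). Gabpa, the DNA-binding subunit of GABP, had 63.9, 301 and 98.6, and Yy1 had 38.3, 212 and 597. Mterf3, which holds back mitochondrial transcription, had 48.7, 99.7 and 17.9.

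Genes of the switch to low oxygen had the largest share of higher signals at 12 h among the lists. Of 6 with a ratio, 4 were at least 2-fold higher and 0 lower than at 0 h (median 1.39), and none passed 2-fold at 24 h relative to 0 h (median 0.80). Pdk1, which slows entry of pyruvate into the citrate cycle, had 54.7, 222 and 104. Bnip3, which marks mitochondria for removal, had 37.3, 124 and 44.2. Hif1a, the oxygen-regulated transcription factor, had 752, 2442 and 1384. All 3 were highest on the 12 h array, which held the highest signal of 16 of the 63 members above the floor throughout (25.4%, against 31.5% of all such genes).

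**Figure D5:**
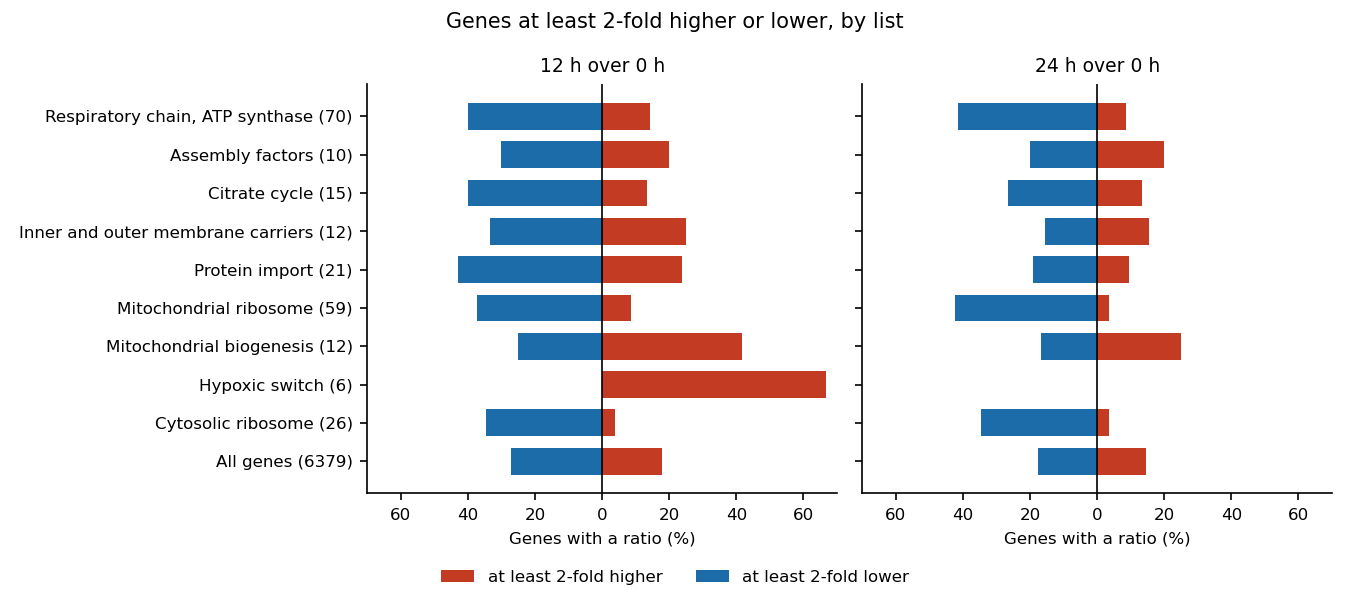
Percentage of genes with a ratio that were at least 2-fold higher (red, to the right) or lower (blue, to the left) for 12 h over 0 h and 24 h over 0 h, by list, with the number of genes that have a ratio for 12 h over 0 h in brackets. Members had 28 and 29 of 70 genes lower and mitochondrial ribosomal proteins 22 and 25 of 59, against 27.3% and 17.7% of all genes, and the 6 genes of the low-oxygen switch have none lower.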

How the data were processed

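The authors deposited 1 linear intensity per probe set and array, without detection calls. Per the labels, RNA was amplified, labelled and hybridized to an Affymetrix mouse array, and Microarray Suite 5.0 and GeneSpring 6.0 were used. Not given in the sources used here are which program wrote the values and how they were scaled. Trimmed means of the deposited intensities were 93.7, 58.1 and 46.8 at 0, 12 and 24 h.

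Each array was scaled to the common 2% trimmed mean of non-control probe sets (factors 0.676, 1.09 and 1.36), floored at the pooled 40th percentile (13.53) and taken to log2. A gene is its brightest probe set among the 10833 that name 1 gene, and 21 members have several. The 396 sets naming several genes, including 10 that name a member, the 1193 naming none and the 66 controls stayed out of counts. With 1 array per time no test was possible, and precision is limited by the number of arrays. Counts use a 2-fold rule. The procedure was run on simulated arrays with noise far below the spread between probe sets seen here, and with ratios planted in bright genes only. That run checks the computation and does not gauge how the 2-fold rule performs on these arrays.

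Members, lists and rules were chosen with earlier results of these data known. The naming rule took the 5 members of largest measured ratio each way and the 3 brightest bounds of at least 2-fold each way in every comparison, the 5 brightest members, isoform families, members with several measured probe sets, complex II, Cyc1 and Cycs, and up to 3 genes of each other list. Remaining members are named so that each is accounted for. The split by protein residues that was planned could not be made, because no protein or transcript lengths were used here. Classes from textbook subunit sizes took its place. Promoters came from the RefSeq table (GRCm38.p6). Analyses used Python 3.11.15, numpy 2.4.6, pandas 2.3.3 and matplotlib 3.10.9. Alternatives were no scaling, centring on the median, quantile normalization, other floors, the mean over probe sets, removal of lettered sets and a 3-fold rule.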

Additional observations from a re-analysis of the deposited data

How the results depend on the processing

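The members' median stayed below that of all genes in the 9 alternatives run for each comparison, by 0.24 to 0.57 on the log2 scale for 12 h over 0 h, 0.33 to 0.42 for 24 h over 12 h and 0.34 to 0.62 for 24 h over 0 h. Scaling set the zero: the median of all genes was -0.83, -0.12 and -0.98 with values as deposited, 0.18, -0.09 and 0.08 after median centring and 0.07, 0.01 and 0.03 after quantile normalization. Members lower for 12 h over 0 h were 57.7%, 28.2% and 35.2% under these, against 44.8%, 18.4% and 21.1% of all genes.

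With values as deposited, 49 members were lower and 1 higher for 24 h over 0 h, 21 lower and 5 higher for 24 h over 12 h, and the member difference for 24 h over 0 h was -0.42. Median centring gave 16 higher for 12 h over 0 h and 21 lower for 24 h over 12 h. Quantile normalization gave 3 higher for 24 h over 0 h, a member difference of -0.57, and differences of -0.80 for complex I and -2.24 for complex III, all 3 for 12 h over 0 h. The 3-fold rule left 18 lower for 12 h over 0 h, 7 lower and 4 higher for 24 h over 12 h, and 18 lower and 1 higher for 24 h over 0 h. Means over probe sets gave member differences of -0.24 for 12 h over 0 h and -0.34 for 24 h over 0 h, where complex I had -0.61 and complex III -0.70.

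Without lettered probe sets 4 members were higher for 12 h over 0 h, 2 for 24 h over 0 h, and 8 lower for 24 h over 12 h. For 24 h over 12 h complex III then turned to 0.24 and complex II reached 0.83, complex IV had -0.45 for 24 h over 0 h, and Rps4l turned to 0.33 for 12 h over 0 h. A floor at the 60th percentile gave -1.15 for complex I and -0.40 for complex IV for 24 h over 0 h, and -0.56 for complex IV for 24 h over 12 h. Complex III for 24 h over 12 h was -0.16 with a floor at the 20th percentile and -0.16 with none. Large minus small for 24 h over 0 h was -0.043 with the lower floor and 0.56 by gene span. Gene span, and a count of subunits of complexes I to V alone, were chosen after seeing the data. Causes of these shifts were not tested, save that fewer genes remained without lettered sets and fewer pass a 3-fold rule. Splits by residues and by transcript length were not run. No paired analysis was possible because each time has 1 array.

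Signals near the floor, as for Sdha, Atp5j2 and Ndufc2, limit ratios to bounds. With 1 array per time no ratio has an error of its own, and the differences between probe sets of a gene, from which error was gauged, can also hold real differences between transcripts. Raised 3' to 5' ratios of Gapdh and Actb on both cultured arrays, the unknown number of embryos and amplification of the RNA touch every comparison with 0 h, and their part was not tested.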
